A study of Mus musculus with 6 samples.

Results

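The expression of 9 genes of the osteoclast and of the RANKL system was examined in the cochlea of mice with and without a working *Cmah* gene. The genes were *Acp5*, *Ctsk*, *Atp6v0d2*, *Tcirg1*, *Calcr*, *Nfatc1*, *Tnfrsf11a*, *Tnfsf11* and *Tnfrsf11b*, and every probe that carries one of these symbols was used. They make up 9 of the 18138 gene symbols and 19 of the 25697 probes on the Illumina MouseRef-8 v2 array, a bead array with 50-base probes. The samples were 3 WT and 3 *Cmah*-null mice, all 12 months old and of the C57BL/6 strain (C57BL/6J in the study's methods), with 1 array each. The deposited columns call the second group "old", and they were matched to the *Cmah*-null samples by group and replicate number. *Cmah*-null mice lack the enzyme that makes the sialic acid Neu5Gc, and the study used them as a model of hearing loss with age. Both groups were untreated. Sex was not given for either group, and the tissue was whole cochlear tissue rather than sorted cells, so a lower signal from fewer cells and one from less RNA per cell cannot be told apart.

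Osteoclasts are the multinucleated cells that dissolve bone, and they arise by fusion of precursors of the monocyte lineage. The ligand RANKL (*Tnfsf11*), made mainly by osteoblasts, osteocytes and stromal cells, binds RANK (*Tnfrsf11a*) on the precursors, and the signal runs through NF-κB and AP-1 to the transcription factor NFATc1 (*Nfatc1*). NFATc1 turns on the genes of resorption, among them tartrate-resistant acid phosphatase (*Acp5*), the collagen-cleaving protease cathepsin K (*Ctsk*), proton pump subunits (*Tcirg1* and *Atp6v0d2*) and the calcitonin receptor (*Calcr*). Osteoprotegerin (*Tnfrsf11b*) is a secreted decoy receptor that captures RANKL. It is abundant in the inner ear, where the bone around the cochlea is remodelled far less than other bone.

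Log2 signals were quantile-normalized by the authors, and a probe was called detected on an array where its detection p against negative controls was under 0.05. Between 13873 and 15223 probes were detected per array, and 12410 were detected on all 6. Some features of the arrays bear on each value below. *Cmah*-null replicate 3 stood apart. Its log2 signals differed from those of the other arrays with an SD of 0.76 to 0.85 over these 12410 probes, against 0.39 to 0.56 for other pairs, and it was the highest array for 36.6% of them and the lowest for 31.7%. *Cmah*-null replicates 1 and 2 differed with an SD of only 0.14, and they were kept as separate samples because the records list them so. WT replicate 1 and these 2 arrays carried a median of 32 to 34 beads per probe, and the others 38 or 39. The probe for *Cmah* itself (ILMN_2606825) read 7.27, 7.28 and 7.87 in WT and 7.95, 7.98 and 7.27 in *Cmah*-null mice. The probe passed the detection threshold on 1 WT and 2 *Cmah*-null arrays, did not separate the genotypes, and whether it lies in the disrupted part of the gene was not given in the sources used here. The genotypes were compared with limma, and p-values were adjusted by the Benjamini-Hochberg method over all probes.

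By the brightest probe of each gene, 5 of the 9 genes were detected on all 6 arrays (*Ctsk*, *Acp5*, *Tcirg1*, *Nfatc1* and *Tnfrsf11b*). *Tnfsf11* and *Tnfrsf11a* were detected on 5 and 3 arrays, and *Calcr* and *Atp6v0d2* on none. None of the 9 genes passed an adjusted p under 0.05 in limma, and neither did any other probe (0.0%). At the study's cut-offs, 1.5-fold with an unadjusted p under 0.05, but with the p from limma, 1 member differed. It was *Ctsk*, which was lower in *Cmah*-null mice. That threshold was passed by 697 probes, 2.71% of all, and by 5.15% of those detected on all arrays. With its own p-values the study reported more changed genes, and its pathway table lists *Nfatc1* among them. In limma the brightest *Nfatc1* probe was past 1.5-fold with an unadjusted p of 0.16. *Ctsk* was the only member with an unadjusted p under 0.05 in limma, which 8.56% of probes reached. The members did not move one way. The difference was above 0 for 5 and below 0 for 4, and its median was 0.23 on the log2 scale, against 0.002 over all probes. The 4 include *Atp6v0d2* and *Calcr*, which were not detected. Among the 5 members detected on all 6 arrays, 3 were higher and 2 lower. Their median was 0.40, against 0.03 over all probes detected on all arrays. Without WT replicate 1, 2 of these 5 were higher and 3 lower. In 4 of the 9, every array of one group lay above every array of the other. This was also so for 16.4% of all probes and 19.3% of those detected on all arrays. The 4 members were *Tcirg1* and *Tnfsf11*, higher in *Cmah*-null mice, *Ctsk*, lower in them, and *Calcr*, which was below detection throughout.

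**Figure D1:**
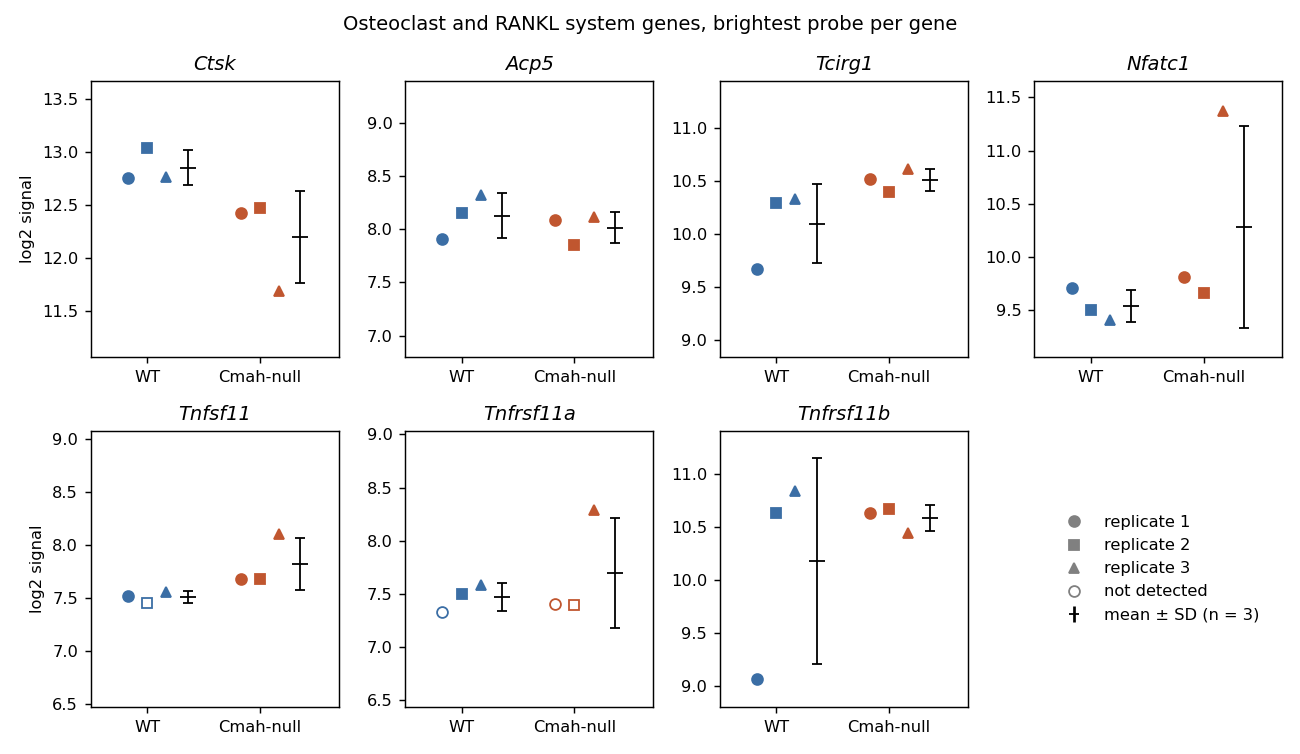
Log2 signal (y axis, each panel spanning the same range of log2 units) of the brightest probe of the 7 members detected on any array, for 3 WT and 3 *Cmah*-null arrays (x axis). Symbols mark the replicates, open symbols arrays on which the probe was not detected, and bars the mean ± SD (n = 3). *Ctsk* was lower on all 3 *Cmah*-null arrays, the *Nfatc1* signal stood out on *Cmah*-null replicate 3 alone (11.38), and the *Tnfrsf11b* signal was low on WT replicate 1 alone (9.07).

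The resorption enzymes came first among the members. *Ctsk*, the cathepsin that digests the collagen of bone and that fibroblasts and cells of the osteoblast lineage also make, gave log2 signals of 12.75, 13.04 and 12.76 in WT mice. In *Cmah*-null mice it gave 12.43, 12.47 and 11.70. Every *Cmah*-null array lay below every WT array, with a gap of 0.28 between the nearest arrays, and *Cmah*-null replicate 3 was the lowest by far. The difference was -0.65 (SE 0.23), a 1.57-fold lower signal in *Cmah*-null mice, with an unadjusted p of 0.0317 and an adjusted p of 0.555 in limma. Without *Cmah*-null replicate 3 the difference was -0.40, which is under 1.5-fold, with an unadjusted p of 0.0159 in limma. With any of the 3 WT arrays left out the unadjusted p in limma lay between 0.0575 and 0.0992. The difference was also smaller, at -0.15 with an unadjusted p of 0.684 in limma, when arrays were scaled to a common median without the quantile step. That scaling moved the median difference of all probes detected on every array from 0.03 to 0.30.

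*Acp5*, the phosphatase used to stain osteoclasts, did not follow *Ctsk*. Its signals were 7.90, 8.15 and 8.33 in WT and 8.08, 7.85 and 8.12 in *Cmah*-null mice, and the groups overlapped. The difference was -0.11 (SE 0.14), with an adjusted p of 0.844 in limma, and it stayed between -0.22 and -0.01 when any 1 array was left out. The arrays with the lowest *Acp5* signal, *Cmah*-null replicate 2 and WT replicate 1, belong to different genotypes.

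The *Ctsk* probe (ILMN_2711163) starts at base 1240 of its reference transcript, and the deposited table places it on the plus strand at chr3:95313042-95313091. The headers name no genome build for these positions. Of the 16 member probes with a position, 4 lie inside their gene in the GRCm38 annotation, so that build was not used for them and the exon or UTR was not looked up. The first 30 of its 50 bases are shown because this 1 probe carries the lower *Ctsk* signal, in lower case with nothing marked.
Ctsk: ggacacaacagggcatttttctgagagttg

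The proton pump that acidifies the resorption pit was represented by 2 members. *Tcirg1* encodes the a3 subunit of the vacuolar ATPase, which osteoclasts need to secrete acid. It was read by 4 probes, in 2 overlapping pairs, and the pairs behaved differently. The probes near the end of the transcript, at bases 2409 and 2421, were detected on all 6 arrays, and those at bases 453 and 459 on none. Their sequences are given to show how little the members of a pair differ, with the bases that both share in capitals. The later pair shares 38 bases and the earlier pair 45.
Tcirg1 base 2409: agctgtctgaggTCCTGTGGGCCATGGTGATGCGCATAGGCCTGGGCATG
Tcirg1 base 2421: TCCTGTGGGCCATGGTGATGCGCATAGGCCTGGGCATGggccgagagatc
Tcirg1 base 453: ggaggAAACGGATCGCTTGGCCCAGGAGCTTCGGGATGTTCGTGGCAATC
Tcirg1 base 459: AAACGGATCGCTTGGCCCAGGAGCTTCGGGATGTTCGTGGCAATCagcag
The table places the later pair at chr19:3896397-3896446 and chr19:3896385-3896434, and the earlier pair at chr19:3903583-3903632 and chr19:3903577-3903626, all on the minus strand. The 2 sequences of the earlier pair are offset by 5 bases, although their listed starts differ by 6. No other probe on the array had the same sequence as any of the 19 member probes. Probes that share most of their bases are not independent readings of the gene.

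At base 2409 (ILMN_2954881), *Tcirg1* gave 9.67, 10.29 and 10.33 in WT and 10.52, 10.40 and 10.61 in *Cmah*-null mice. The groups did not overlap, but the nearest arrays were only 0.07 apart and WT replicate 1 lay well below the rest. The difference was 0.41 (SE 0.20), with an unadjusted p of 0.082 and an adjusted p of 0.627 in limma. Without WT replicate 1 it was 0.20. At base 2421 (ILMN_2746456) the signals were 9.66, 10.01 and 9.72 in WT and 10.13, 9.95 and 10.26 in *Cmah*-null mice. Here the groups overlapped through *Cmah*-null replicate 2, and the difference was 0.32 (SE 0.13), with an adjusted p of 0.593 in limma. Both probes therefore read higher in *Cmah*-null mice on average, by less than 1.5-fold. With median scaling the difference at base 2409 was 0.84, with an unadjusted p of 0.0015 and an adjusted p of 0.103 in limma, beside the shift of 0.30 in all detected probes.

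*Atp6v0d2*, the d2 subunit of the same pump, which osteoclasts need for fusion, was not detected on any array, with log2 signals from 7.07 to 7.20. The 3 probes of *Calcr*, the receptor for the hormone that halts resorption, were likewise not detected on any array, and their signals ran from 7.04 to 7.31. At these signals neither gene could be compared between genotypes, and no fold is given. The brightest *Calcr* probe was lower on every *Cmah*-null array by a margin of only 0.0058, and another *Calcr* probe was higher on all of them. Both pump subunit d2 and *Calcr* are among the more specific markers of mature osteoclasts, and both were below detection in this bulk tissue. *Acp5*, which is used to stain osteoclasts, was detected on all arrays. Detection also differed between probes of the same gene, as for *Tcirg1*.

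*Nfatc1*, the factor that commits precursors to the osteoclast fate and that also acts in lymphocytes, muscle and vessels, had 6 probes, of which 3 were detected on all arrays, 1 on 3 and 2 on none. The brightest (ILMN_1216522) gave 9.70, 9.50 and 9.40 in WT and 9.81, 9.66 and 11.38 in *Cmah*-null mice. *Cmah*-null replicate 3 was far above the other arrays, and *Cmah*-null replicates 1 and 2 lay near the WT range. The difference was 0.75 (SE 0.46), with an unadjusted p of 0.16 and an adjusted p of 0.698 in limma, and without that array it was 0.20.

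The other *Nfatc1* probes showed the same array. The second (ILMN_2648455) gave 9.48, 9.44 and 9.28 in WT and 9.24, 9.13 and 11.19 in *Cmah*-null mice, and its difference turned from 0.45 (SE 0.56) to -0.21 without *Cmah*-null replicate 3. Without it, both remaining *Cmah*-null arrays lay below the WT arrays. The third (ILMN_2648704) turned from 0.10 to -0.07 and the partly detected one (ILMN_1224430) from 0.19 to -0.11. *Cmah*-null replicate 3 was the highest array for all 4 detected probes of *Nfatc1*, and it was at the same time the lowest for *Ctsk*, a target of NFATc1 in osteoclasts. It also stood apart over all probes, as described above, and the part of that in these values was not tested.

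*Tnfrsf11a*, the receptor RANK on osteoclast precursors, followed the same array. It gave 7.33, 7.50 and 7.58 in WT and 7.40, 7.39 and 8.29 in *Cmah*-null mice. The signal passed detection on WT replicates 2 and 3 and on *Cmah*-null replicate 3 only, and the groups overlapped. The difference was 0.23 (SE 0.26), with an adjusted p of 0.830 in limma, and -0.07 without *Cmah*-null replicate 3. The other 5 arrays lay between 7.33 and 7.58, close to background.

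The ligand *Tnfsf11* (RANKL) was weak in all samples. It gave 7.52, 7.45 and 7.56 in WT and 7.68, 7.68 and 8.10 in *Cmah*-null mice, and it was detected on 5 arrays, all but WT replicate 2. Every *Cmah*-null array lay above every WT array, by 0.12 at the nearest. The difference was 0.31 (SE 0.13), with an unadjusted p of 0.0601 and an adjusted p of 0.601 in limma, and 0.17 without *Cmah*-null replicate 3. Because the signals lay close to background, the size depended on how background was handled. After neqc, which subtracts it, the difference was 0.80, with an unadjusted p of 0.0331 and an adjusted p of 0.523 in limma.

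*Tnfrsf11b* (osteoprotegerin), the decoy that keeps RANKL from its receptor, was detected on all arrays. It gave 9.07, 10.63 and 10.84 in WT and 10.63, 10.67 and 10.44 in *Cmah*-null mice. WT replicate 1 was low, and the other 5 arrays lay between 10.44 and 10.84. The difference was 0.40 (SE 0.47), with an adjusted p of 0.833 in limma, and it turned to -0.15 without WT replicate 1. The probes of the ligand and the decoy are on the minus strand at chr14:78677684-78677733 and chr15:54082762-54082811, from bases 1754 and 2180 of their transcripts, and each gene was read by 1 probe. The first 30 bases of each are shown because the comparison of ligand and decoy rests on this 1 pair of probes.
Tnfsf11: cctgaaggtactcgtagctaagggggcaga
Tnfrsf11b: agctgtcatgtctggttcagtatctacaga

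The log2 signal of *Tnfsf11* minus that of *Tnfrsf11b* was computed on each array. Its level depends on the 2 probes, so only its change between arrays can be read. It was -1.55, -3.18 and -3.28 in WT and -2.95, -2.99 and -2.35 in *Cmah*-null mice. The WT values spread more widely than the *Cmah*-null values and enclosed them, since WT replicate 1 was the highest of the 6. *Tnfsf11* was not detected on WT replicate 2 and was near background on the other arrays, so these values are limited by background. The means were -2.67 ± 0.97 (SD, n = 3) and -2.76 ± 0.36 (SD, n = 3), and the difference of -0.09 had a two-sided exact permutation p of 1.0, where the smallest p that 3 against 3 arrays allow is 0.1. Without WT replicate 1 the difference was 0.47, with an exact permutation p of 0.2, and after neqc it was 0.31, with an exact permutation p of 0.6.

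**Figure D2:**
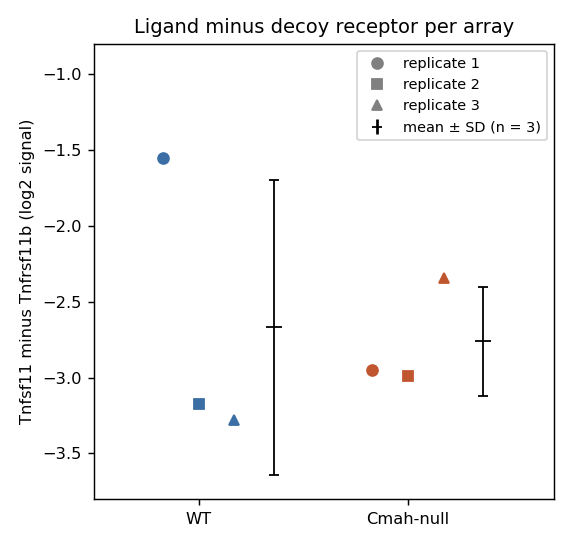
Log2 signal of *Tnfsf11* minus that of *Tnfrsf11b* on each array (y axis) by genotype (x axis), with symbols for the replicates and bars for the mean ± SD (n = 3). The 3 *Cmah*-null values, from -2.99 to -2.35, lie between the WT values, which run from -3.28 to -1.55.

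The dependence on single arrays was thus shared by the receptor and the transcription factor. Of the 11 member probes with a detected signal in both groups, those of *Tnfrsf11a* and 3 of the 4 of *Nfatc1* changed sign when *Cmah*-null replicate 3 was left out, while those of *Ctsk*, *Acp5*, *Tcirg1*, *Tnfsf11* and *Tnfrsf11b* kept theirs.

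**Figure D3:**
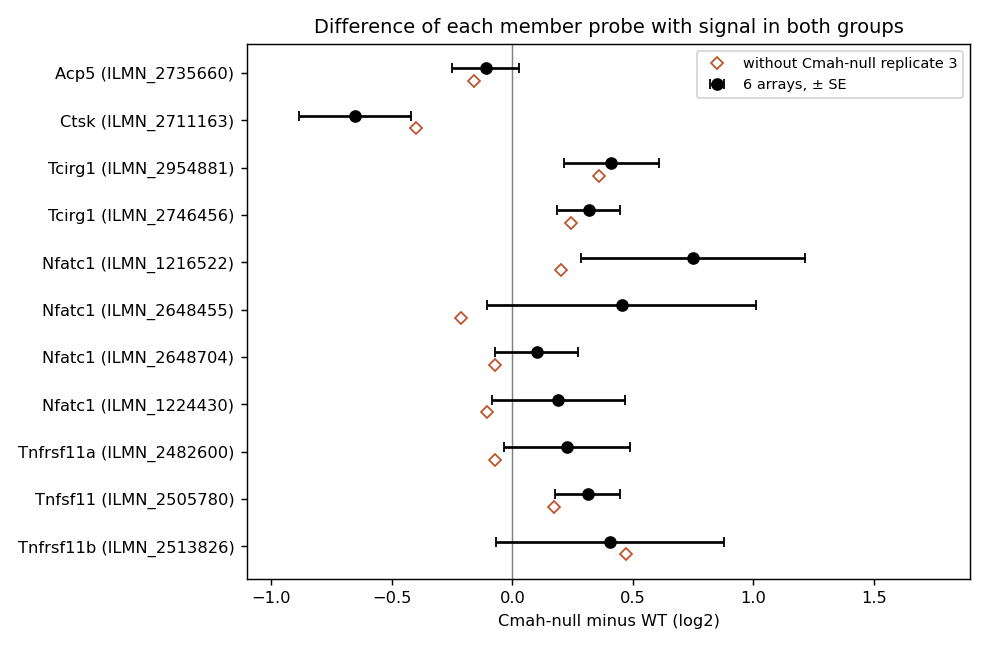
Difference between *Cmah*-null and WT mice (x axis, log2) for each member probe detected on at least 1 array of each group (y axis), from 6 arrays with its SE (filled circles) and without *Cmah*-null replicate 3 (open diamonds). The *Ctsk* probe lies at -0.65 and at -0.40 without that array, and the brightest *Nfatc1* probe at 0.75 and 0.20.

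The wider signalling pathway upstream of NFATc1 was described from a list of 25 genes, of which 22 were on the array and 18 were detected on all 6 arrays. None passed an adjusted p under 0.05, and 2 passed the 1.5-fold threshold with an unadjusted p under 0.05 in limma, both higher in *Cmah*-null mice. *Fos*, the AP-1 subunit that osteoclast precursors require, gave 9.71, 10.47 and 10.28 in WT and 11.35, 11.30 and 11.89 in *Cmah*-null mice. All *Cmah*-null arrays were above all WT arrays, and the difference was 1.36 (SE 0.25), with an unadjusted p of 0.00182 and an adjusted p of 0.397 in limma. *Fos* is also an early response gene of most cells under stimulation. *Csf1*, the growth factor of the macrophage and osteoclast lineage, gave 8.38, 8.48 and 8.76 in WT and 8.96, 9.02 and 9.97 in *Cmah*-null mice, again without overlap. Its difference was 0.78 (SE 0.29), with an unadjusted p of 0.0393 and an adjusted p of 0.569 in limma, and 0.45 without *Cmah*-null replicate 3. Without that array *Csf1* was under 1.5-fold, with an unadjusted p of 0.0164 in limma. Without any 1 of the WT arrays it stayed past 1.5-fold, with an unadjusted p between 0.0529 and 0.108 in limma. It thus missed 1 of the 2 cut-offs in each of these runs, whereas *Fos* passed both under every alternative run.

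By the brightest probe, all 18 detected genes of this list had a mean above that of WT mice, beside 6588 of the 12410 probes detected on every array. The median difference was 0.28, against 0.03 for those probes. Some of the 18 lay close to 0, among them *Tyrobp* and *Irf8* (both 0.022) and *Cyld* (0.020). *Traf6* was at 0.06, but its other detected probes were at -0.25 and -0.06. *Cmah*-null replicate 3 was the highest array for 13 of the 18. Without it 14 of the 18 were higher and 4 lower, and without WT replicate 1 the count was also 14. With a block for beads per probe 15 were higher. In 5 genes of the list the groups did not overlap, all higher in *Cmah*-null mice, beside 16.4% of all probes and 19.3% of those detected on all arrays. The 5 genes were *Fos*, *Csf1*, the NF-κB subunits *Nfkb1* and *Relb*, and *Sfpi1*, the myeloid factor PU.1, which was detected on 2 arrays only. The genes that couple osteoclast receptors to calcium signalling included *Trem2* and *Fcer1g*, for which *Cmah*-null replicates 1 and 2 were above all WT arrays (9.31 and 9.09 for *Trem2*, 12.12 and 12.11 for *Fcer1g*) and replicate 3 (8.56 and 10.59) was not. *Sfpi1*, *Nfkb1*, *Relb*, *Trem2* and *Fcer1g* were chosen after their values were seen.

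Genes of fusion, adhesion and resorption did not share that direction. Of 20 genes, 18 were on the array and 16 were detected on all 6 arrays, 8 with a higher and 8 with a lower mean in *Cmah*-null mice, and the median over the 18 was 0.02. None passed an adjusted p under 0.05, and 1 passed the 1.5-fold threshold with its unadjusted p. This was *Car2*, the carbonic anhydrase that supplies protons for acid secretion and that is also made by red cells and by many epithelia. It gave 10.22, 10.68 and 9.38 in WT and 9.24, 9.50 and 8.92 in *Cmah*-null mice. *Cmah*-null replicate 2 lay above WT replicate 3, so the groups overlapped, and the difference was -0.87 (SE 0.35), with an unadjusted p of 0.0483 and an adjusted p of 0.580 in limma. It ran from -1.23 to -0.58 with 1 array left out, and the call was kept only without WT replicate 3. In limma 4 of the 18 had an unadjusted p under 0.05, beside 8.56% of all probes and 13.3% of those detected on all arrays. In 6 the groups did not overlap (4 higher, 2 lower in *Cmah*-null mice), beside shares of 16.4% and 19.3%. *Slc4a2*, chosen after its values were seen, was higher in *Cmah*-null mice without overlap, just short of 1.5-fold. Its difference was 0.58 (SE 0.12), with an unadjusted p of 0.00273 and an adjusted p of 0.397 in limma, and 0.48 without *Cmah*-null replicate 3. *Itgb3*, the integrin of the osteoclast sealing zone, was not detected on any array, although it is among the 4 and among the 6. *Tm7sf4*, the fusion protein DC-STAMP, was detected on 1.

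The lists for other cells that the tissue can hold are given as values beside the members. Of 16 osteoblast and osteocyte genes, 12 were detected on all arrays, and 11 of these had a lower mean in *Cmah*-null mice. The median over the list was -0.17, and none of its genes passed the 1.5-fold threshold with its unadjusted p. The lowest difference was that of *Col1a2*, a chain of the bone collagen that *Ctsk* cleaves, at -1.24 with an adjusted p of 0.741 in limma, and the highest was that of *Mepe*, an osteocyte matrix protein, at 0.40 with an adjusted p of 0.812. Both moved with single arrays. *Col1a2* was at -2.03 without *Cmah*-null replicate 3, with an unadjusted p of 0.0391 in limma, and at -0.54 without WT replicate 2, and *Mepe* was at 0.76 without WT replicate 2 and at 0.11 without WT replicate 1. The summed linear signal of the list ran from 52146 to 148168 in WT and from 55033 to 55899 in *Cmah*-null mice. WT replicates 1 and 2 were the high arrays (123155 and 148168) and WT replicate 3 was not above the *Cmah*-null arrays. Without WT replicate 2, 5 of the 12 detected genes were lower and 7 higher. *Sost* and *Runx2* were not detected on any array. The part of these cells in the *Ctsk* difference was not tested.

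Of 12 monocyte and macrophage genes on the array, 11 were detected on all arrays, with a median over the 12 of 0.17, and none passed that threshold. Their summed signal ran from 70411 to 73865 in WT and from 71607 to 73770 in *Cmah*-null mice, but between 86.8% and 92.6% of it came from 1 lysozyme probe near the scanner's ceiling. Without that probe the sums were 5241, 6375 and 8154 in WT and 9082, 9453 and 5645 in *Cmah*-null mice. *Cmah*-null replicates 1 and 2 were then above all WT arrays and replicate 3 was not. *C1qb*, a complement chain made by macrophages, showed the same order, with 10.19, 10.11 and 10.42 in WT and 11.26, 11.53 and 9.66 in *Cmah*-null mice. Its difference was 0.57 with an adjusted p of 0.771 in limma. Without *Cmah*-null replicate 3 it was 1.15, with an unadjusted p of 0.000263 in limma, and without replicate 2 it was 0.22. *Emr1*, a surface marker of mouse macrophages, was at -0.41 by its brightest probe, with an adjusted p of 0.846 in limma. That probe was at -0.98 without WT replicate 1 and at 0.060 without WT replicate 3. Another *Emr1* probe detected on all arrays (ILMN_2847787) went the other way, at 0.22 with an adjusted p of 0.864 in limma. The part of macrophages in the members' values was not tested. For 12 marrow and blood genes the median was -0.03, with *Mpo* of neutrophil precursors at 0.92 (adjusted p 0.708 in limma) and the globin *Hbb-b1* at -1.004 (adjusted p 0.584). With 1 array left out *Mpo* ran from 0.43 to 1.43 and *Hbb-b1* from -1.25 to -0.57. Probes of *Hba-a1* and *Ltf* near the ceiling gave between 65.8% and 82.4% of the summed signal, and without them the sums ran from 30074 to 67599 in WT and from 27680 to 43552 in *Cmah*-null mice.

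Muscle genes and most fat genes had a lower mean in *Cmah*-null mice. The 12 muscle genes all had a mean below that of WT mice, 1 of them by almost nothing, with a median of -0.53, and without 3 probes near the ceiling their sums were 92074 to 226408 in WT and 99701 to 117786 in *Cmah*-null mice. *Ttn*, the giant spring protein of muscle, was the only one past the 1.5-fold threshold with its unadjusted p, at -0.84 with an adjusted p of 0.578 in limma, and of the single-array omissions that call was kept only without WT replicate 3. Of the 8 fat genes, 3 passed the same threshold and were lower in *Cmah*-null mice, with a list median of -0.86. They were *Ucp1* and *Cidea* of brown fat, at -2.11 and -2.01 with adjusted p-values of 0.433 and 0.397 in limma, and the hormone gene *Lep*, at -1.49 with an adjusted p of 0.550. *Ucp1* and *Cidea* passed under every alternative run, and *Lep*, with 1 array left out, only without WT replicate 2. The list was not uniform. *Cfd*, the fat cell protease adipsin, gave 14.41, 14.05 and 15.11 in WT and 15.29, 15.26 and 13.81 in *Cmah*-null mice, a difference of 0.26 that was 0.75 without *Cmah*-null replicate 3. *Adipoq*, the hormone adiponectin, was at -1.20 and at -0.32 without that array, and *Retn* was not detected on any array. *Cfd*, *Adipoq* and *Retn* were chosen after their values were seen. The fat sums ran from 37109 to 61251 in WT and from 18605 to 53105 in *Cmah*-null mice. The part of muscle and fat in the members' values was not tested.

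For the cochlea itself, 9 of 15 listed genes were detected on all arrays, with a median over the 15 of 0.09 and none past that threshold. *Gjb2*, the gap junction protein of supporting cells, was at 0.57 with an adjusted p of 0.708 in limma, and *Otos*, made by fibrocytes of the lateral wall, at -0.65 with an adjusted p of 0.792. With 1 array left out *Gjb2* ran from 0.23 to 0.74 and *Otos* from -0.9996 to -0.034. The summed signal was lowest on WT replicate 1 (13643), the array on which *Tnfrsf11b* was also lowest, and ran from 22808 to 28230 on the other 5 arrays. The list's median log2 signal was not lowest there. It was 8.16 on WT replicate 1, 8.02 and 8.13 on the other WT arrays and 8.23 to 8.38 on the *Cmah*-null arrays. Hair cell genes were detected in part. *Myo7a* and *Otof* were detected on all 6 arrays, with differences of 0.09 (adjusted p 0.842 in limma) and 0.55 (unadjusted p 0.0314, adjusted p 0.554), both chosen after their values were seen. *Pou4f3* and *Slc26a5* were not detected on any array, nor were *Tectb* and *Otor*.

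**Figure D4:**
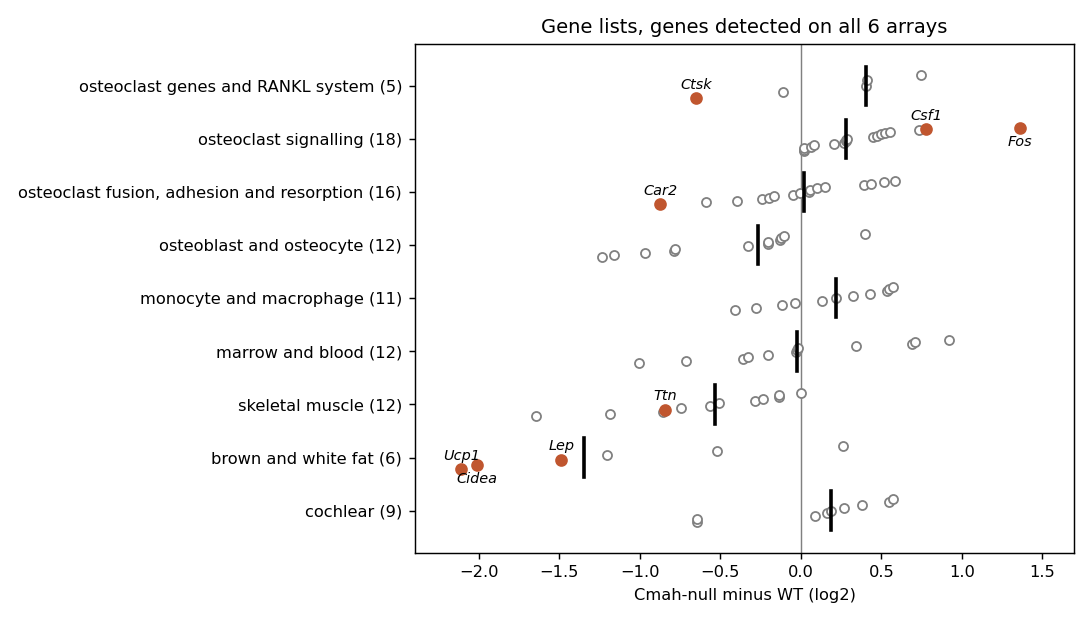
Difference between *Cmah*-null and WT mice (x axis, log2) of each gene detected on all 6 arrays, by list (y axis, with the number of genes). Vertical bars are medians of the genes drawn, and filled points mark a change of at least 1.5-fold whose unadjusted p was under 0.05. All 18 osteoclast signalling genes lie above 0, and the resorption list divides into 8 above and 8 below.

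The genes closest to the mean profile of *Acp5* and *Ctsk* over the arrays were in none of the lists used here. The mean of the 2 centred profiles was highest on WT replicate 2 (0.30) and lowest on *Cmah*-null replicate 3 (-0.39). Among 12402 other probes detected on all arrays, the 6 with the smallest root mean square difference from it over the 6 arrays were *Abcf2* (0.04), *Ccdc77* (0.05), *Trub2* (0.06), *Dnajc8* (0.06), *2410018G20Rik* (0.06) and *1110007L15Rik* (0.06), against a median of 0.37 over all probes compared. *Acp5* and *Ctsk* differed from each other by 0.44 on this measure, which is more than that median. The mean profile therefore describes neither gene closely, and likeness to it is not likeness to each of the 2 genes.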

How the data were processed

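Total RNA from cochlear tissue was hybridized to 1 array per sample. The deposited raw table holds intensity values (average bead signal, not normalized), a detection p-value against negative controls and the count of beads per probe, per the file headers. The authors deposited log2 values in a second table, which equalled quantile-normalized log2 raw signals to within 5.0e-07. Columns named "old" were taken as the *Cmah*-null samples, by group and replicate number. Another 12 columns that repeat per-sample values, and the authors' own fold changes and p-values, were not used.

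The log2 values were compared with limma 3.58.1 (R 4.3.3) by a two-sided moderated test without covariates and adjusted over all 25697 probes. A limma fit of the same form was run on simulated arrays with independent noise, as a check of the mean estimated change only. The simulation had no outlying array and no pair of near-identical arrays. The brightest probe stood for each gene. From other lists, genes that passed 1.5-fold and an unadjusted p of 0.05 were named, or else the largest and smallest difference among genes detected on all arrays. The members and lists were chosen with earlier results of these data known. Not matched on the array were *Fosl1*, *Lgr4*, *Siglec15*, *Ocstamp*, *Atp6v0c*, *Mpeg1*, *Cd79a* and *Otog*. Alternatives were neqc (offset 16), median scaling, only probes detected on 3 or more arrays, blocks for replicate number and for beads per probe, a variance prior with trend and robust, each array left out, and *Cmah*-null replicates 1 and 2 averaged. The study's methods give 3 mice per group, and the number of arrays limits the precision. List sums without probes at a mean log2 signal of 15.5 or more were added after seeing the data. Python 3.11.15 and matplotlib 3.10.9 were used for summaries and figures.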

Additional observations from a re-analysis of the deposited data

How the results depend on the processing

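No member passed an adjusted p under 0.05 under any alternative run. The number of members at 1.5-fold with an unadjusted p under 0.05, 1 in the comparison as reported (*Ctsk*), was 2 after neqc (*Ctsk* and *Tnfsf11*) and 2 after median scaling (*Tcirg1* and *Nfatc1*), and 0 to 1 with 1 array left out. It was 0 without any of the 3 WT arrays and without *Cmah*-null replicate 3. The members' median difference of 0.23 was 0.47 after neqc and ran from -0.041 (without WT replicate 1) to 0.37 with 1 array left out, and was -0.027 without *Cmah*-null replicate 3. Members without overlap numbered 3 to 6, and groups separate more easily with 1 array left out. The shares of all probes given above, 2.71% past that threshold and 16.4% without overlap, belong to the comparison as reported. No share is given for the alternatives, so their counts cannot be read against one. The difference of *Tnfsf11* minus *Tnfrsf11b*, -0.09 as reported, was 0.31 after neqc and 0.012 with *Cmah*-null replicates 1 and 2 averaged, and ran from -0.40 to 0.47 with 1 array left out.

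Of 338 values of 26 single probes, 332 kept their direction and their side of an adjusted p of 0.05, and 6 turned. With 1 array left out, 3 *Nfatc1* probes ran from -0.11 to 0.37, from -0.21 to 0.81 and from -0.072 to 0.22 and *Tnfrsf11a* from -0.071 to 0.38, each lowest without *Cmah*-null replicate 3. *Tnfrsf11b* ran from -0.15 (without WT replicate 1) to 0.74, and *Emr1* from -0.98 to 0.060 (without WT replicate 3). The resorption list's median was 0.35 after median scaling, against 0.02, and the cochlear list's 0.17 with the detection filter, against 0.09. Counts of higher and lower genes by setting were chosen after seeing the data. After median scaling 9878 of the 12410 probes detected on all arrays were higher. So were 13 of 16 detected resorption genes, 6 of 12 osteoblast and osteocyte genes and 4 of 12 muscle genes. After neqc 6550 of the 12410 probes were higher, and 17 of 18 signalling genes and 1 of 12 muscle genes. Other lists' medians moved by less than the spread between replicates. The cause of these changes was not tested.

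With the replicate number as a block the differences were the same by construction (*Ctsk* -0.65, unadjusted p 0.0227, adjusted p 0.542 in limma), and no call at an adjusted p under 0.05 changed. *Ttn* no longer passed 1.5-fold with its unadjusted p (0.0567 in limma), and *Ctsk* and the other 6 named genes that passed it still did. Deviations of samples with the same number from their group means correlated at 0.02, -0.17 and 0.01 over 12410 probes. Those of samples with different numbers correlated at -0.097 to 0.17. With 3 arrays per group these values cannot show whether a shared number stands for a shared batch. With a block for beads per probe *Ctsk* was at -0.75 and *Tcirg1* at 0.54. Members with signals near background, *Tnfsf11* and *Tnfrsf11a*, are limited by it, and *Atp6v0d2* and *Calcr* were not measurable.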
